A study of Mus musculus with 22 samples.

Results

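The genes described here are 5 cadherins of kidney epithelium and stroma, Cdh1, Cdh2, Cdh6, Cdh11 and Cdh16, together with Epcam, an epithelial adhesion molecule of another family. They were chosen by gene symbol and make up 6 of the 32858 genes in the count table. All 6 passed the filter on low counts, which kept 17131 genes. Counts of a member in a library ran from 142 reads (the lowest for Cdh11) to 47920 reads (the highest for Cdh16).

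Kidneys of 22 male C57Bl6/J mice, 8 to 10 weeks old, were profiled by RNA-Seq, with 1 library per mouse. The vehicle group held 5 mice and the KW6002 group 6 mice, the latter receiving KW6002 (istradefylline, an antagonist of the adenosine receptor encoded by Adora2a) at 3 mg/kg daily from day -5 to day 7. The cisplatin group held 5 mice, given 6 injections of 3 mg/kg of this platinum chemotherapy, which injures the renal tubule, and the cisplatin plus KW6002 group held 6 mice given both drugs at those doses. Kidneys were collected 72 hours after the last cisplatin dose. The mice carried no transgene that the labels name. Mouse numbers in the 300s marked 3 vehicle and 3 KW6002 mice, and numbers in the 500s marked the other 16, among them every cisplatin-treated mouse, so results are also given within the 500s. Libraries held 26471762 to 40510754 counts. The samples carried the RNA of kidney: the 10 proximal tubule markers summed to between 21140 and 22450 CPM (TMM-normalized counts relative to the library total, on the usual CPM scale) in vehicle libraries, and none was at 0. In 1 mouse given both drugs, replicate 6, markers of adrenal cortex summed to 64.4 CPM, against a median of 2.00 CPM in its group.

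Classical cadherins are calcium-dependent proteins that join neighbouring cells by binding like molecules, and their tails hold catenins that connect to actin. Kidney epithelium is unusual in that the proximal tubule of the mouse relies largely on N-cadherin (Cdh2), whereas E-cadherin (Cdh1) dominates in the distal nephron and collecting duct. K-cadherin (Cdh6) is known from the developing nephron, Ksp-cadherin (Cdh16) is a kidney-specific cadherin with a short tail that lacks the catenin-binding part, OB-cadherin (Cdh11) is typical of mesenchymal cells, and EpCAM marks epithelia, in kidney mainly the distal segments.

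Cisplatin moved the 6 genes in opposite directions, with Cdh1, Epcam, Cdh6 and Cdh11 higher and Cdh16 and Cdh2 lower than in vehicle. All 6 passed the test (edgeR quasi-likelihood, Benjamini-Hochberg adjusted p below 0.05), and in none did the 2 groups overlap. These counts stand against a transcriptome in which 70.5% of tested genes passed, 34.6% higher and 35.9% lower, and in which 55.3% had groups that did not overlap, so that both were common. With KW6002 added to cisplatin, 5 of the 6 differed from cisplatin alone (55.8% of all genes did), each against the direction of the cisplatin difference: 3 were lower (27.2% of all genes) and 2 higher (28.6%). Both comparisons use the same cisplatin mice, so that opposite signs in them are not independent. Fat markers also differed between these 2 groups, 3 of 5 being lower with both drugs, with sums of 3.92 to 226 CPM against 127 to 310 CPM with cisplatin alone. With the fat markers as a covariate the same 5 genes passed in the same directions, and Epcam passed as well (log2 fold change -0.51, adjusted p = 0.0144). KW6002 alone changed none of the 6.

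**Figure D1:**
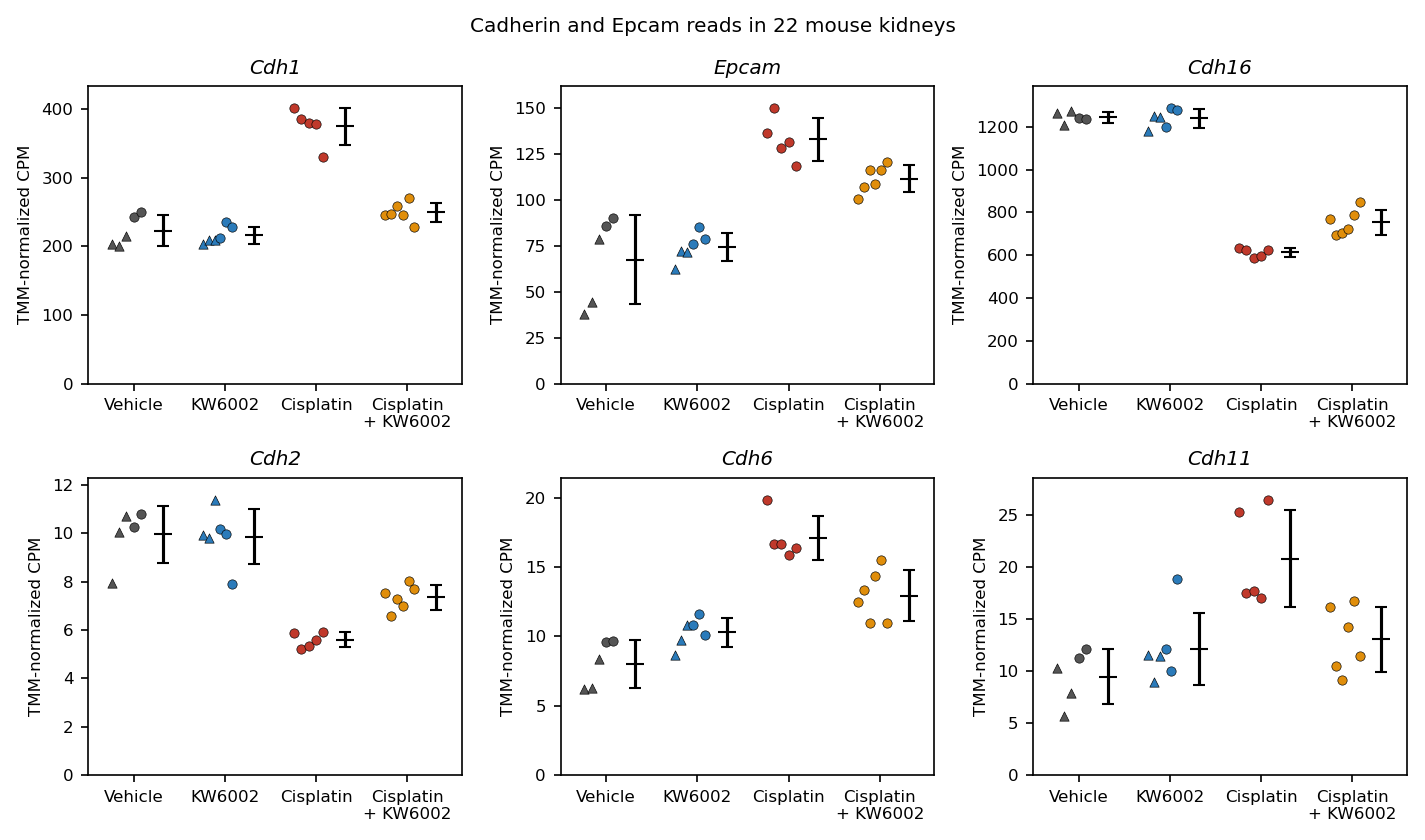
TMM-normalized CPM (scaled between libraries by trimmed means) of each gene, on a linear axis from 0, in the 22 kidneys by treatment; triangles are mice numbered in the 300s, circles those in the 500s, and bars show mean ± SD. The 5 cisplatin libraries lie above all 5 vehicle libraries for Cdh1, Epcam, Cdh6 and Cdh11 and below them for Cdh16 and Cdh2.

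Cdh1, encoding E-cadherin, lies on chromosome 8 (mm10, chr8:106603351-106670246, plus strand). In the 5 vehicle mice its level was 204, 200, 215, 243 and 249 CPM. In the 5 cisplatin mice it was 401, 385, 379, 379 and 330 CPM. Every cisplatin library exceeded every vehicle library. The mean was 222 ± 22.5 CPM (SD, n = 5) with vehicle and 375 ± 26.7 CPM (n = 5) with cisplatin, a log2 fold change of 0.75 ± 0.07 (SE; adjusted p = 8.21e-10). Within the 500s the log2 fold change was 0.60 (adjusted p = 4.04e-06).

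With both drugs, Cdh1 ran from 228 to 270 CPM, with a median of 246 CPM (n = 6). These libraries sat wholly below the cisplatin range and overlapped the upper vehicle values. Against cisplatin alone the log2 fold change was -0.59 ± 0.06 (adjusted p = 6.3e-08). Against vehicle it was 0.17 ± 0.06 (adjusted p = 0.0291). The vehicle mice numbered in the 300s had a mean of 206 CPM (n = 3), against 246 CPM in the 2 of the 500s. Within the 500s the log2 fold change against vehicle was 0.02 (adjusted p = 0.868). The call was also lost when vehicle replicate 1, 2 or 3 or replicate 3 or 5 of the doubly treated group was left out (adjusted p 0.0543 to 0.0946). It was lost with fat markers as a covariate too, and what separates these mice was not tested. KW6002 alone gave 203 to 235 CPM, with a median of 211 CPM, inside the spread of vehicle.

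Epcam lies on chromosome 17 (mm10, chr17:87635979-87651129, plus strand). Its vehicle values were 38.0, 44.6, 78.5, 85.5 and 90.1 CPM, and its cisplatin values were 136, 150, 128, 132 and 119 CPM. Vehicle replicates 1 and 2 stood well below the other 3, yet the cisplatin group cleared all 5. The log2 fold change was 0.98 ± 0.17 (adjusted p = 1.49e-05). It was 0.65 (adjusted p = 1.29e-06) without those 2 libraries and 0.59 (adjusted p = 1.15e-05) within the 500s.

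The same 2 vehicle libraries differed from the other 3 in several marker lists. Their 6 markers of collecting duct principal cells summed to 358 and 348 CPM, against 489 to 602 CPM in the others. Their 5 markers of the thick ascending limb, another EpCAM-bearing segment, summed to 4595 and 4969 CPM, against 6732 to 7746 CPM. Their 5 fat markers were high, at 374 and 678 CPM against 44.9 to 104 CPM. The part of these differences in the Epcam values was not tested.

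With both drugs Epcam ran from 101 to 121 CPM, with a median of 112 CPM, overlapping the cisplatin group at its lower end and exceeding every vehicle library. Against vehicle the log2 fold change was 0.73 ± 0.16 (adjusted p = 4.47e-04), and 0.34 (adjusted p = 0.00259) within the 500s. Against cisplatin it was -0.25 ± 0.16 (adjusted p = 0.171), with a 95% interval from -0.58 to 0.07. Epcam was thus the only one of the 6 that missed the threshold in this comparison. The estimate was the same size, -0.25, and passed (adjusted p = 0.00462) when vehicle replicates 1 and 2 did not enter the shared estimate of spread. With KW6002 alone Epcam ran from 62.4 to 85.4 CPM, with a median of 74.1 CPM, within the vehicle range.

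Promoter sequence was on hand for Epcam and Cdh6, a pair of members that both rose with cisplatin, and is shown because repressors of the Snail and Zeb families, described further on, bind the hexamer CACCTG or its reverse complement CAGGTG. The 250 bases before the annotated start of each gene are given 5′ to 3′ on the gene's own strand, from RefSeq (GRCm38.p6), with each such hexamer in capitals. The Epcam window is chr17:87635729-87635978 (plus strand) and the Cdh6 window is chr15:13173676-13173925 (minus strand).
Epcam: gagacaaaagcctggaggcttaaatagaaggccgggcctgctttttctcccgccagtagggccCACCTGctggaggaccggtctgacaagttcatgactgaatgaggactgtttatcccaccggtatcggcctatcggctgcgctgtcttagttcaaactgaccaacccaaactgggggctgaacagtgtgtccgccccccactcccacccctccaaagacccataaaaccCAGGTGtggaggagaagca
Cdh6: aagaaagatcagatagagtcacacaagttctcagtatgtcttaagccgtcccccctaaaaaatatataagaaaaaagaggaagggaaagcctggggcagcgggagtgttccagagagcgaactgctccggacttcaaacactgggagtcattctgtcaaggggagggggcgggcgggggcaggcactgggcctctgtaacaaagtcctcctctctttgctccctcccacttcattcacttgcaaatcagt
The Epcam window held 2 hexamers, CACCTG at 187 to 182 bases and CAGGTG at 19 to 14 bases before the start, and the Cdh6 window held 0. Among 32851 promoter windows of the same length, 17.2% held at least 1 and 2.06% held 2 or more. A match describes the letters only, and binding was not measured.

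Cdh16, the kidney-specific cadherin of tubule cell membranes, lies on chromosome 8 (mm10, chr8:104601911-104624396, minus strand), in the same stretch of the chromosome as Cdh1. It was the most abundant of the 6. Vehicle values were 1267, 1210, 1273, 1243 and 1235 CPM, and cisplatin values were 634, 625, 586, 598 and 623 CPM. The 2 groups were far apart relative to their spread, with means of 1246 ± 25.5 and 613 ± 20.5 CPM (SD, n = 5 each). Its log2 fold change was -1.02 ± 0.05 (adjusted p = 9.62e-14), and it stayed at -1.02 within the 500s (adjusted p = 3.2e-09).

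In mice given both drugs Cdh16 ran from 695 to 847 CPM, with a median of 745 CPM. These values lay above all cisplatin values and below all vehicle values. The log2 fold change was 0.30 ± 0.05 against cisplatin (adjusted p = 2.97e-05) and -0.72 ± 0.05 against vehicle (adjusted p = 5.41e-11). The highest value belonged to replicate 6, the kidney with adrenal RNA, which also had the highest Epcam (121 CPM) and the lowest Cdh1 (228 CPM) of its group. That library also had the highest proximal tubule marker sum of its group (12940 CPM, group median 9296 CPM). Its sum of renal injury markers was the lowest (497 CPM, group median 726 CPM). The part of either feature in these values was not tested. KW6002 alone left Cdh16 between 1179 and 1288 CPM, with a median of 1250 CPM, around the vehicle values.

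Cdh2, encoding N-cadherin, lies on chromosome 18 on the minus strand, and a predicted gene, Gm15485, overlaps it on the other strand. It was read at a far lower level than Cdh1 in whole kidney. The vehicle values were 7.93, 10.0, 10.7, 10.3 and 10.8 CPM, and the cisplatin values were 5.89, 5.22, 5.33, 5.59 and 5.92 CPM. Vehicle replicate 1 was low for its group but still above every cisplatin library. The log2 fold change was -0.83 ± 0.09 (adjusted p = 4.25e-08), and -0.92 within the 500s (adjusted p = 8.3e-07).

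With both drugs Cdh2 ran from 6.56 to 8.01 CPM, with a median of 7.41 CPM. It exceeded every cisplatin library and met the vehicle group only at vehicle replicate 1. Against cisplatin the log2 fold change was 0.39 ± 0.09 (adjusted p = 7.48e-04), and against vehicle it was -0.44 ± 0.09 (adjusted p = 2.01e-04). KW6002 alone, at 7.90 to 11.4 CPM with a median of 9.94 CPM, spanned the vehicle range.

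Markers of the tubule segments fell alongside Cdh16 and Cdh2. In cisplatin against vehicle, 10 of 10 proximal tubule markers fell, and they summed to between 3783 and 5896 CPM in cisplatin libraries. With scaling by total count only, in place of TMM, Slc13a3 no longer passed (-0.22, adjusted p = 0.0633). Slc34a1, the apical phosphate transporter, fell by 5.04 on the log2 scale (SE 0.41, adjusted p = 2.32e-10), and Slc27a2, a fatty acid transporter and activating enzyme, fell by 1.20 (SE 0.10, adjusted p = 5.89e-10). All 5 thick ascending limb markers also fell, from a summed 4595 to 7746 CPM down to 2002 to 2317 CPM, as did all 4 distal convoluted tubule markers, from 1885 to 2142 CPM down to 83.6 to 195 CPM. Of these 4, Pvalb, named after its value was seen, ran from 17.5 to 20.5 CPM with vehicle and from 0 to 0.16 CPM with cisplatin. It passed the filter mainly through libraries without cisplatin, so its fall is not independent of the filter. With both drugs the proximal sum was 8685 to 12940 CPM, and 8 of its 10 markers were higher than with cisplatin alone. In whole-kidney RNA, fewer cells of a type and less RNA per cell cannot be told apart.

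Cdh6, the K-cadherin gene, lies on chromosome 15 (mm10, chr15:13028701-13173675, minus strand). Vehicle values were 6.19, 6.26, 8.37, 9.62 and 9.67 CPM. Cisplatin values were 19.9, 16.7, 16.6, 15.9 and 16.4 CPM. Replicate 1 of the cisplatin group stood apart at the top, and the groups were separated without it. The log2 fold change was 1.09 ± 0.13 (adjusted p = 5.94e-08), and 0.82 within the 500s (adjusted p = 3.45e-05), where the 2 vehicle mice averaged 9.64 CPM against 6.94 CPM in the 300s.

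In the doubly treated mice Cdh6 ran from 10.9 to 15.5 CPM, with a median of 12.9 CPM, between the vehicle and cisplatin groups and touching neither. The log2 fold change was -0.40 ± 0.12 against cisplatin (adjusted p = 0.00555) and 0.69 ± 0.12 against vehicle (adjusted p = 4.03e-05), the latter being 0.43 within the 500s (adjusted p = 0.0112). Cdh6 came closest of the 6 to a difference with KW6002 alone, at 8.67 to 11.6 CPM, with an overlap with vehicle. That log2 fold change was 0.36 ± 0.12 (unadjusted p = 0.00752, adjusted p = 0.28), and 0.17 within the 500s (adjusted p = 0.741).

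Alongside Cdh6, 7 of 8 markers of renal injury rose with cisplatin. They summed to between 121 and 166 CPM with vehicle and between 1602 and 2761 CPM with cisplatin. Havcr1, encoding kidney injury molecule 1, rose by 8.11 (SE 0.40) and Lcn2, encoding NGAL, by 8.31 (SE 0.33) on the log2 scale (adjusted p = 4.27e-14 and 1.32e-15). Their sum with both drugs was 497 to 953 CPM, and 6 of the 8 were lower than with cisplatin alone. The segments from which these markers were read, and whether Cdh6 was read from the same cells, were not tested.

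Cdh11, encoding OB-cadherin, lies on chromosome 8 (mm10, chr8:102632095-102785642, minus strand), where 4 short annotated genes overlap it on its own strand. The vehicle values were 10.3, 5.69, 7.86, 11.2 and 12.1 CPM, and the cisplatin values were 25.3, 17.5, 17.6, 17.0 and 26.5 CPM. Within cisplatin, replicates 1 and 5 were set apart from the other 3, all of them above vehicle. This was the most scattered member, and its log2 fold change of 1.13 ± 0.21 (adjusted p = 6.35e-05) had the largest error of the 6. Within the 500s it was 0.82 (adjusted p = 0.0107).

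With both drugs Cdh11 ran from 9.13 to 16.7 CPM, with a median of 12.8 CPM, below every cisplatin library and overlapping the upper vehicle values. The log2 fold change was -0.67 ± 0.20 against cisplatin (adjusted p = 0.00656). Against vehicle it was 0.46 ± 0.21 (adjusted p = 0.0608), which missed the threshold, and the call changed with which library was left out: without vehicle replicate 4 or 5, or replicate 2 or 3 of the doubly treated group, it passed (adjusted p 0.0306 to 0.0497). Within the 500s it was 0.16 (adjusted p = 0.635), and without vehicle replicates 1 and 2 it was 0.32 (adjusted p = 0.24). In KW6002 mice it was 8.91 to 18.8 CPM, with a median of 11.5 CPM, the top value being replicate 6.

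Most fibroblast markers moved in the same direction as Cdh11 between vehicle and cisplatin. Of 8 markers, 6 rose with cisplatin. Decorin, Dcn, rose by 0.94 ± 0.20 (adjusted p = 1.86e-04) and the collagen gene Col1a2 by 1.79 ± 0.21 (adjusted p = 7.08e-08) on the log2 scale. The sum of the 8 was 221 to 458 CPM with vehicle, 904 to 1183 CPM with cisplatin and 409 to 740 CPM with both drugs, and 6 of 8 were lower with both drugs than with cisplatin alone. With scaling by total count only, Dcn also passed as lower there (-0.48, adjusted p = 0.0321). None of the 8 was at 0 in any group. Against vehicle, 5 of the 8 were higher with both drugs and 2 were lower. The lower ones were Lum (-1.15, adjusted p = 0.00927) and Postn (-1.55, adjusted p = 0.00696), named after their values were seen. Within vehicle, replicate 2 had a fibroblast sum of 444 CPM and the lowest Cdh11 (5.69 CPM). Replicate 5 had a sum of 331 CPM and the highest Cdh11 (12.1 CPM). The share of Cdh11 reads that came from fibroblasts was not tested.

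For Cdh1 and Epcam, the lists of distal and lining epithelia moved less evenly. Among 6 principal cell markers, 2 rose and 1 fell with cisplatin. They summed to between 348 and 602 CPM with vehicle and between 611 and 884 CPM with cisplatin. The water channel gene Aqp2 rose (log2 fold change 1.41 ± 0.25, adjusted p = 2.46e-05), from a mean of 161 to 427 CPM. The mean sum went from 459 to 715 CPM, so the higher sum came mainly from Aqp2. Aqp3 gave -0.15 ± 0.16 (adjusted p = 0.414). Scnn1g, named after its value was seen, gave -0.57 ± 0.105 (adjusted p = 4.17e-05). Of 5 intercalated cell markers 3 fell, the sum being 288 to 338 CPM with vehicle and 161 to 214 CPM with cisplatin, and of 5 urothelial markers 4 rose, the urothelial sum being 2.92 to 27.0 CPM with vehicle, 36.7 to 51.7 CPM with cisplatin and 9.16 to 40.7 CPM with both drugs. With scaling by total count only, the intercalated marker Foxi1 no longer passed (-0.03, adjusted p = 0.778). The principal cell marker Scnn1b (0.255, adjusted p = 0.00351) and the urothelial marker Upk2 (1.085, adjusted p = 0.0489) then passed as higher. The part of these lists in the Cdh1 and Epcam differences was not tested.

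Per kilobase of exon, which allows genes to be compared, Cdh16 was highest in every group, followed by Cdh1 and then Epcam. In vehicle kidneys the means were 328 ± 6.67 CPM per kb for Cdh16 and 48.6 ± 4.93 CPM per kb for Cdh1 (SD, n = 5). The other 3 were near each other, at 1.23 ± 0.15 for Cdh2, 1.06 ± 0.30 for Cdh11 and 0.89 ± 0.19 CPM per kb for Cdh6, neighbours whose ranges overlapped. With cisplatin that order became Cdh11 at 2.33 ± 0.52, Cdh6 at 1.89 ± 0.18 and Cdh2 at 0.69 ± 0.04 CPM per kb, with Cdh2 apart from the others and Cdh11 and Cdh6 still overlapping.

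Summed over the 5 cadherins, reads per kilobase fell from 380 ± 8.40 CPM per kb with vehicle to 249 ± 8.38 CPM per kb with cisplatin, and were 257 ± 14.7 CPM per kb with both drugs. Cdh16 made up 86.4% ± 1.26 of that sum with vehicle, 65.1% ± 1.64 with cisplatin and 77.3% ± 1.83 with both drugs. Cdh1 took 12.8% ± 1.15, 33.0% ± 1.79 and 21.3% ± 1.77 in the same groups. The remaining 3 cadherins stayed minor, each at most 1.23% of the sum in any of the vehicle, cisplatin or doubly treated libraries. The total moved little between cisplatin and the double treatment while its makeup differed, and no test was run on these shares.

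The ratio of Cdh2 to Cdh1, often read as a cadherin switch when it rises, was lower with cisplatin here. Per kilobase it was 0.0254 ± 0.00278 with vehicle (SD, n = 5), 0.00851 ± 0.00097 with cisplatin (n = 5) and 0.0167 ± 0.00142 with both drugs (n = 6). The cisplatin libraries ran from 0.00769 to 0.0102, the doubly treated from 0.0151 to 0.0191 and the vehicle from 0.0221 to 0.0284, so the 3 groups did not overlap. In KW6002 mice it was 0.0260 ± 0.00379 (n = 6). A ratio within a library does not depend on library scaling, and it shows unequal change of the pair. By the background given above, the pair belongs largely to different segments, which whole-kidney libraries do not measure. The mean proximal marker sum went from 21820 CPM with vehicle to 4620 CPM with cisplatin. The median log2 fold change of the proximal markers was -2.92, against -0.83 for Cdh2. A switch within cells and a change in the segments cannot be told apart by this ratio, and neither was tested.

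Cdh6 to Cdh16 per kilobase was 0.00271 ± 0.00058 with vehicle, 0.00349 ± 0.0003 with KW6002, 0.0117 ± 0.00089 with cisplatin and 0.00725 ± 0.00117 with both drugs. The cisplatin and the doubly treated libraries each stood clear of the other groups. Cdh6 and Cdh16 were each already apart, in opposite directions, among the vehicle, cisplatin and doubly treated groups. Their ratio therefore had to be apart among those groups as well. Cdh1 to Epcam ran from 1.31 to 2.57 with vehicle and from 1.23 to 1.42 with cisplatin, and was lower with both drugs, from 0.91 to 1.17, below every library of the other 3 groups.

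**Figure D2:**
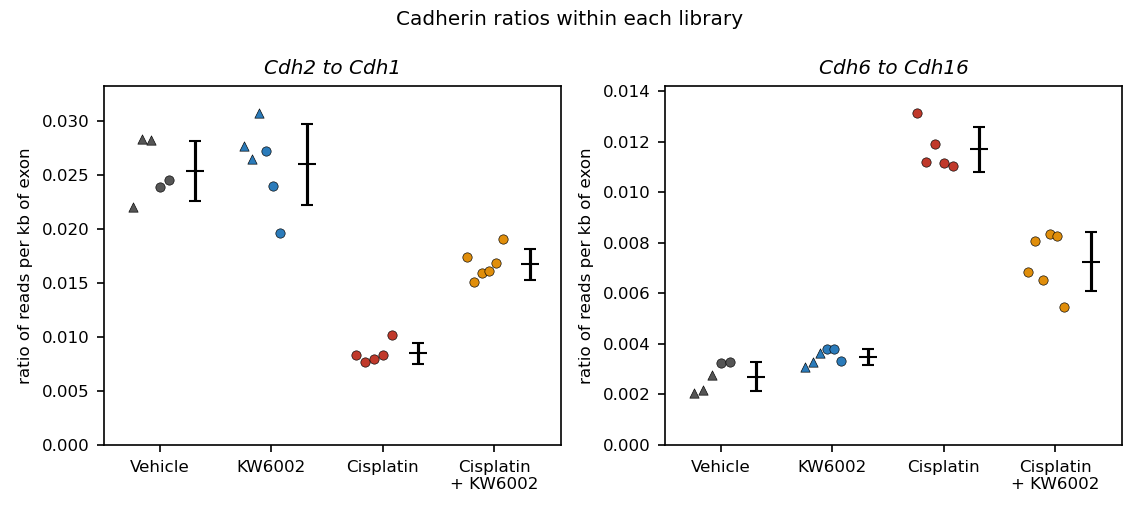
Ratio of Cdh2 to Cdh1 (left) and of Cdh6 to Cdh16 (right), each in reads per kb of exon within a library, by treatment; triangles are mice numbered in the 300s, circles those in the 500s, and bars are mean ± SD. Cdh2 to Cdh1 is lowest with cisplatin (0.00769 to 0.0102) and Cdh6 to Cdh16 highest (0.0111 to 0.0132), with the doubly treated mice between cisplatin and vehicle in both.

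The difference between the effect of KW6002 with cisplatin and its effect without was tested directly as an interaction in the same model. It passed for 5 of the 6 (42.7% of all genes): positive for Cdh2 (0.41 ± 0.13, adjusted p = 0.0121) and Cdh16 (0.31 ± 0.07, adjusted p = 0.0015), where 22.8% of all genes were positive. It was negative for Cdh1 (-0.55 ± 0.09, adjusted p = 4.23e-05), Cdh6 (-0.76 ± 0.17, adjusted p = 9.55e-04) and Cdh11 (-1.02 ± 0.29, adjusted p = 0.0066), where 19.9% were negative. For Epcam it was -0.40 ± 0.22 (adjusted p = 0.157).

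Against vehicle, the doubly treated kidneys differed in 5 of the 6 (59.7% of all genes), with Cdh1, Epcam and Cdh6 higher (29.8% of all genes) and Cdh2 and Cdh16 lower (29.9%). The Cdh1 call is the one that did not hold within the 500s, and it passed in only 12 of 23 alternatives. For KW6002 against vehicle, edgeR passed 0 of the 6, where 0.0175% of all genes, 3 in number, passed. At an unadjusted p below 0.05 only Cdh6 did, among 1930 of all genes, and DESeq2 also passed 0 of the 6 while passing 99 of all genes.

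**Figure D3:**
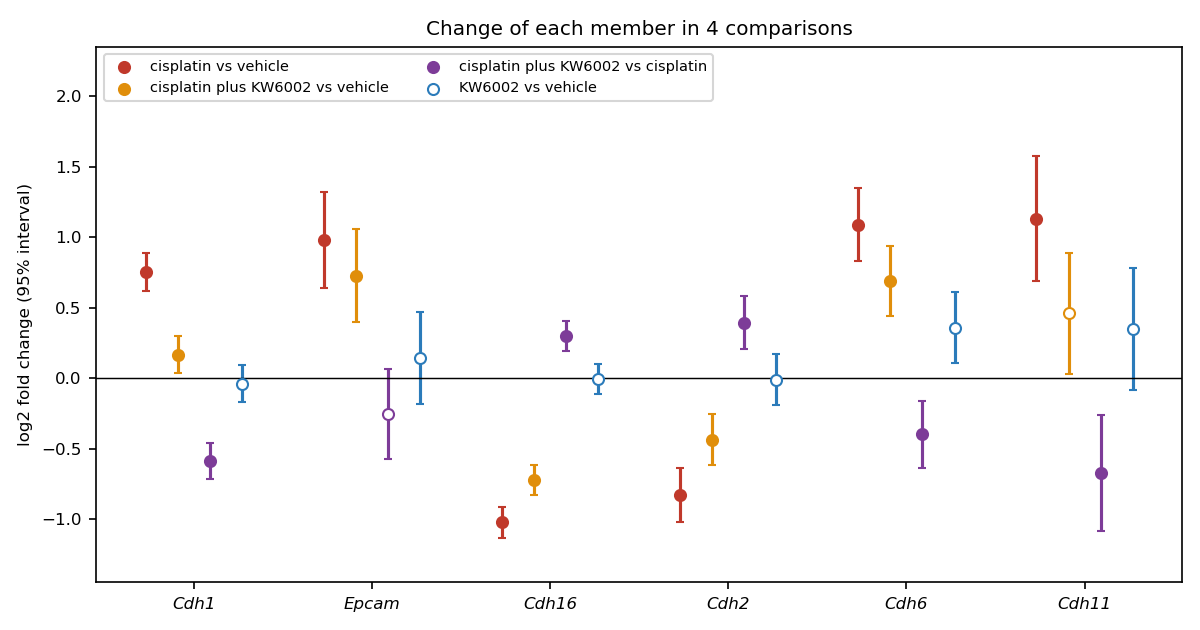
Log2 fold change of each gene in 4 comparisons with its 95% interval from edgeR; filled points passed an adjusted p of 0.05 and open points did not. Cdh1, Epcam, Cdh6 and Cdh11 are above 0 and Cdh16 and Cdh2 below 0 for cisplatin against vehicle, while every point of KW6002 against vehicle is open.

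Lists of junction partners and regulators were read in the same fit, and their counts stand beside the shares of all genes given above, 34.6% higher and 35.9% lower with cisplatin and 28.6% higher and 27.2% lower when KW6002 was added. The catenins, the cleavage factors and the other cadherins had shares near these for cisplatin. Some list genes, named after their values were seen, passed the filter mainly through the groups in which they were higher. Among them were Cdh17, Pkp1, Mmp7 and Twist2 through cisplatin libraries, and Ctnna2 and Ctnna3 through libraries without cisplatin. Their directions are not independent of the filter. Catenins, which tie cadherin tails to the cytoskeleton, were divided: of 11 tested, 4 rose and 4 fell with cisplatin (median log2 fold change 0.13, against -0.01 over all genes). Scaled by total count only, which raised the median of all genes to 0.20, 7 rose and 4 fell. Shares of all genes by direction are not given for that scaling, so its list counts have no such comparison. Beta-catenin, Ctnnb1, was at 504 ± 9.99 CPM with vehicle and 503 ± 31.4 CPM with cisplatin (log2 fold change 0.00, adjusted p = 0.948), and its estimate became 0.22 (adjusted p = 6.19e-04) under that scaling. Alpha-catenin Ctnna1 rose by 0.28 ± 0.06 (adjusted p = 2.16e-04), p120-catenin Ctnnd1 by 0.13 ± 0.05 (adjusted p = 0.0264) and plakoglobin Jup by 0.36 ± 0.07 (adjusted p = 4.22e-05). Pkp4, an armadillo relative of p120, fell by 0.85 ± 0.06 (adjusted p = 6.21e-12), and Ctnnbip1, an inhibitor of beta-catenin, fell by 0.65 ± 0.08 (adjusted p = 1.17e-07).

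Desmosome genes, which anchor keratins at the membrane, mostly rose with cisplatin, 8 of 9 with 1 falling (median log2 fold change 1.15). The 8 include Pkp1, which lay about the filter threshold of 0.306 CPM. It ran from 0.10 to 0.28 CPM with vehicle and from 0.32 to 0.50 CPM with cisplatin. The linker periplakin, Ppl, rose most, from 13.0 ± 5.09 to 184 ± 20.7 CPM (log2 fold change 3.82 ± 0.22, adjusted p = 6.54e-13). Perp, a desmosome component induced by p53, rose by 1.76 ± 0.08 and desmoplakin, Dsp, by 1.28 ± 0.13. With both drugs 6 of the 9 were lower than with cisplatin alone, Ppl by -1.93 ± 0.19 (adjusted p = 1.63e-08).

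Partners and proteases of EpCAM went with Epcam in 5 of 6 cases under cisplatin. The membrane protease matriptase, St14, rose by 1.56 ± 0.10 and claudin 7, Cldn7, which binds EpCAM, by 1.50 ± 0.10. The exception, which fell, was the protease prostasin, Prss8 (-1.04 ± 0.10, adjusted p = 1.51e-09), named after its value was seen. With both drugs 5 of 6 were lower and 1 higher than with cisplatin alone.

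Nectins and afadin, which build adherens junctions beside the cadherins, rose in 6 of 9 cases and fell in 3 with cisplatin (6 and 2 with scaling by total count). Nectin1 rose by 1.70 ± 0.16, Pvr, a nectin-like adhesion molecule, by 1.48 ± 0.12 and Nectin4 by 1.33 ± 0.10. With both drugs 5 of the 9 were lower than with cisplatin alone.

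Repressors of Cdh1 transcription did not move as a block. Of 10 tested, 4 rose and 1, Tcf4, fell with cisplatin (5 rose, Tcf4 no longer falling, with scaling by total count), beside the rise of Cdh1 itself. Tcf4 was named after its value was seen, as was Twist2. Twist2 averaged 0.14 CPM with vehicle and 0.47 CPM with cisplatin, and passed the filter through cisplatin libraries. Snai3 went from 0.57 ± 0.24 to 4.73 ± 0.88 CPM (log2 fold change 3.03 ± 0.32, adjusted p = 1.95e-08), and Snai1, the archetypal Snail factor, from 1.50 ± 0.47 to 2.90 ± 0.87 CPM (0.95 ± 0.23, adjusted p = 8.07e-04). Zeb1 rose by only 0.19 ± 0.08 (adjusted p = 0.0474). With both drugs Snai3 was lower than with cisplatin (-1.11 ± 0.27, adjusted p = 0.00111), and Snai1 gave -0.47 ± 0.21 (adjusted p = 0.0637), which passed with scaling by total count (-0.53, adjusted p = 0.0371). Of the 10, 1 was higher and 3 were lower in this comparison, and 1 and 6 with that scaling. It moved the median of all genes in this comparison from 0.005 to -0.055.

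Among 12 transcription and splicing factors that maintain epithelial state, 7 rose and 2 fell with cisplatin. The grainyhead factor Grhl1 rose by 1.82 ± 0.24, and the ETS factors of epithelia Elf3 and Ehf by 1.71 ± 0.09 and 1.26 ± 0.20. With both drugs Grhl1 (-1.13 ± 0.21) and Elf3 (-0.84 ± 0.09) were lower than with cisplatin, and Ehf gave -0.23 ± 0.19 (adjusted p = 0.32). In all, 3 of the 12 were lower and 3 higher in that comparison.

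Among 13 proteases and other factors that cut or turn over cadherins, 5 rose and 3 fell with cisplatin. With scaling by total count, which raised the median of all genes to 0.20, 7 rose and the 3 no longer passed as lower. The 5 include Mmp7, at no more than 0.07 CPM in vehicle libraries and 0.34 to 1.55 CPM with cisplatin. Mmp14, a membrane-bound matrix protease, rose by 2.08 ± 0.14, and the sheddases Adam15 and Adam10, the latter a main protease of E-cadherin, by 0.55 ± 0.05 and 0.52 ± 0.05. With both drugs all 3 were lower than with cisplatin alone, Adam15 at -0.53 ± 0.05 and Adam10 at -0.52 ± 0.05.

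Of 22 other cadherins, 9 passed the filter, of which 4 rose and 3 fell with cisplatin. The 4 include Cdh17, with 0 counts in all vehicle libraries, which passed the filter through its cisplatin libraries (12 to 34 counts). Its rise is therefore not independent of the filter. P-cadherin, Cdh3, rose by 1.52 ± 0.11 (adjusted p = 2.45e-11), the brush border protocadherin Cdhr2 by 1.39 ± 0.07 (adjusted p = 1.32e-13) and Cdh24 by 1.31 ± 0.18 (adjusted p = 8.51e-07). With both drugs 4 of the 9 were lower and 1 higher than with cisplatin alone.

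**Figure D4:**
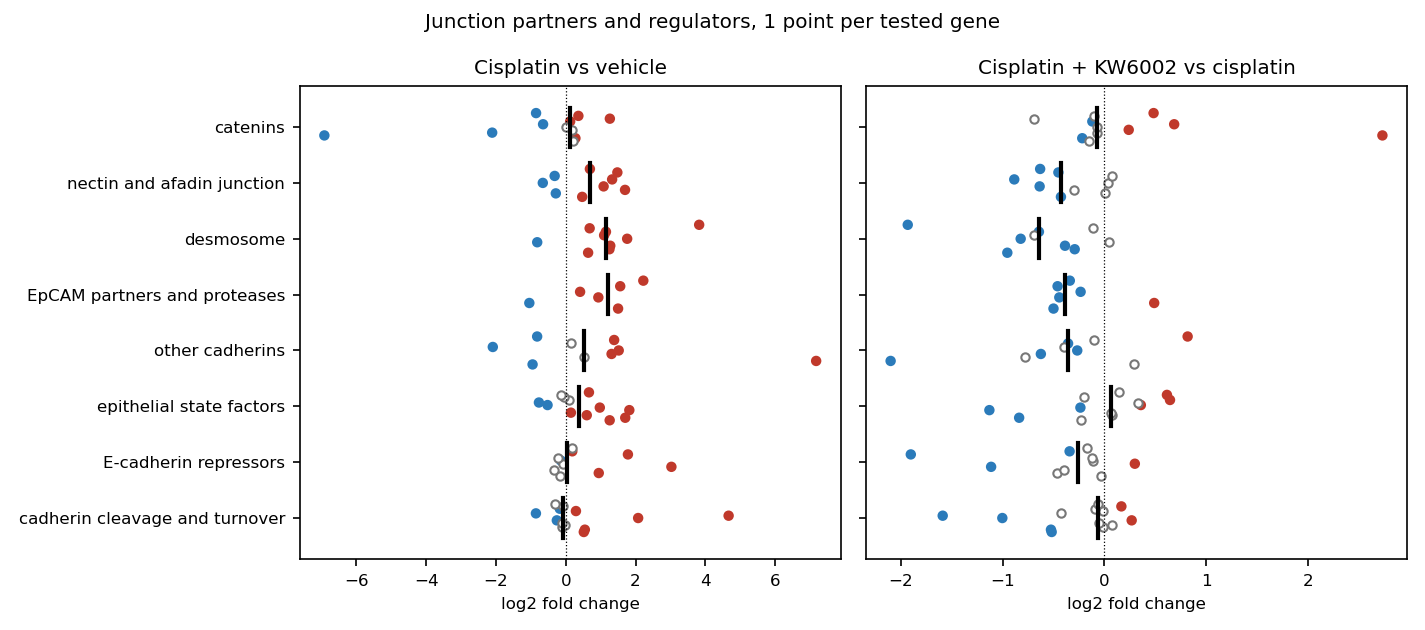
Log2 fold change of each tested gene in 8 lists of junction partners and regulators for cisplatin against vehicle (left) and cisplatin plus KW6002 against cisplatin (right); red points rose and blue points fell at an adjusted p below 0.05, open points did not pass, and black bars are list medians. Desmosome genes are mainly red on the left (8 of 9) and blue on the right (6 of 9), and catenins are split on the left (4 and 4).

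The genes most like each member across the 22 libraries were taken from 10189 candidates by the root mean square difference of mean-centred log2 CPM. Nearest to Cdh1 were Inpp5a at 0.07, Map4 at 0.08 and Ppp2r2a at 0.09, and nearest to Cdh16 were Pdss2 at 0.08, Ccser2 at 0.08 and Jmjd8 at 0.09. Cdh2 was followed by Syne1, Pdpr and Ghitm (0.12 to 0.13) and Cdh6 by Ptpn14, Specc1 and Srgap3 (0.14 to 0.15). Epcam lay nearest to Tmem30b, Foxc1 and Dsp (0.16 to 0.18), the last also a member of the desmosome list. Cdh11 had the most distant neighbours, Mrc2, Egflam and Col15a1 (0.21 to 0.23).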

How the data were processed

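RNA of 22 mouse kidneys was measured by RNA-Seq, 1 library per mouse. The deposited values are counts, whole reads for each gene in each library, and the authors obtained them from stranded mRNA libraries by STAR mapping to mm10, keeping uniquely aligned reads, and HTSeq 0.6.1p1 in union mode, without normalization. The strand setting of counting is not given in the sources used here, so reads of genes overlapping on opposite strands cannot be told apart with certainty. Another 66 unnamed columns without values were not used. Symbols and positions came from GENCODE M21, on the same build, which matched 32824 of 32858 identifiers.

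The filter required a CPM of 0.306 or more, which is 10 counts in a library of median size, in 5 or more libraries, and a summed count of 15. Counts were fitted with edgeR 4.0.16 in R 4.3.3, with TMM factors, 1 mean per group, 1 fit over all 22 libraries and no covariate, and tested by quasi-likelihood F tests adjusted by the Benjamini-Hochberg method over all 17131 genes. An adjusted p below 0.05 was read as changed. P-values rest on the spread between mice. The common dispersion was 0.0168. The fit was tested on simulated counts with known changes.

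Alternatives were DESeq2 1.42.0, other scaling factors or none, other filters, fits of the compared groups only, a replicate block, the label series as covariate or the 500s alone, a fat marker covariate, each library left out, and, chosen after seeing the data, vehicle replicates 1 and 2 left out, also together with replicate 6 of the doubly treated group. In each list the genes named were up to 3 with the largest absolute log2 fold change for cisplatin against vehicle among those past an adjusted p of 0.05 with an average log2 CPM not below 1, besides all 6 members and Ctnnb1, Ctnna1, Ctnnd1 and Jup. For each member, the 3 most similar genes were named, the average log2 CPM being 3 or more. From marker lists, up to 2 genes of highest mean CPM were named. One gene that these rules include is not reported here. Members and lists were chosen with earlier results of these data known. Lengths are unions of annotated exons. Log2 CPM used a prior count of 2.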

Additional observations from a re-analysis of the deposited data

Results flagged for a closer look

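In 24 groups examined (6 genes in 4 treatments), 3 held a library far from the rest of its group, where chance alone flags about 5% of groups. Cdh2 was low at 7.93 CPM in vehicle replicate 1, Cdh6 was high at 19.9 CPM in cisplatin replicate 1, and Cdh11 was high at 18.8 CPM in KW6002 replicate 6.

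The effect of KW6002 differed between mice with and without cisplatin for 5 genes, by the interaction term of the edgeR fit. Such a result was common, since 42.7% of all tested genes passed the same test, and it does not set these genes apart. On the log2 scale the difference was -0.55 for Cdh1, 0.41 for Cdh2, -0.76 for Cdh6, -1.02 for Cdh11 and 0.31 for Cdh16. For Cdh11 its adjusted p rose to as much as 0.0497 under the alternatives.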

How the results depend on the processing

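The number of members that passed in each of the 5 comparisons stayed within 1.5 times the reported one under every alternative run, and no member that passed changed direction. Without length correction the Cdh2 to Cdh1 ratio was 0.0449 with vehicle, 0.0459 with KW6002, 0.015 with cisplatin and 0.0295 with both drugs, in the same order. Replicate numbers did not pair the mice (same-number pairs had a median correlation of 0.008, from -0.18 to 0.41, over 31 pairs), and with the replicate block 6 members passed for cisplatin plus KW6002 against vehicle in place of 5, Cdh11 at 0.42 (adjusted p = 0.0318) being added. The block changed no other member's call.

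The call for Cdh1 with both drugs against vehicle was lost with the label series as covariate (0.06, adjusted p = 0.383) and with the fat covariate (0.09, adjusted p = 0.303). In all, that call passed in 12 of 23 alternatives, with log2 fold changes from 0.017 to 0.324. Cdh11 in that comparison passed with scaling by total count (0.62, adjusted p = 0.0135). Epcam with both drugs against cisplatin passed in a fit of those groups only (adjusted p = 0.00371) and with the fat covariate (-0.51, adjusted p = 0.0144), which also gave an interaction of -0.55 (adjusted p = 0.0328). For KW6002 against vehicle, edgeR passed 3 of all genes and DESeq2 99. The vehicle arm within the 500s holds 2 mice, which limits those estimates.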

Other observations

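A pair of junction genes outside the naming rule, chosen after their values were seen, had few or no counts in one of the groups. Cdh17, the cadherin of intestinal epithelium, had 0 counts in all 5 vehicle libraries and 12 to 34 counts in the 5 cisplatin libraries, at least 5.32-fold higher against a floor of 3 counts per vehicle library. With both drugs it had 0 to 9 counts, above 0 in 4 of 6 libraries. Ctnna2, encoding the alpha-catenin of neurons, had 82 to 145 counts with vehicle, 0 to 2 with cisplatin and 0 to 17 with both drugs.

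The brush border cadherins Cdhr2 and Cdhr5, which bind each other, moved apart. Cdhr5, also named after its value was seen, fell by 0.82 (SE 0.07, adjusted p = 1.3e-09) with cisplatin while Cdhr2 rose, and with both drugs it differed from vehicle by -0.01 (adjusted p = 0.958), whereas Cdhr2 remained 1.28 ± 0.07 above vehicle (adjusted p = 1.53e-12).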
